A study of Homo sapiens with 8 samples.

Results

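The 10 genes described here encode the heat-inducible and constitutive chaperones of the cytosol together with their master regulator: HSF1, HSPA8, HSPA1A, HSPA1B, HSPH1, DNAJB1, BAG3, HSP90AA1, HSP90AB1 and HSPB1. They were chosen by symbol, by matching the transcripts named in each row of the count tables to Gencode genes, and each of the 10 had a row of its own among 20165 rows, of which 14024 were tested. All 10 passed the filter on low counts. RNA-seq libraries came from OVCAR3, an established cell line from a high-grade ovarian carcinoma, with 2 libraries in each of 4 groups. In the first pair of groups, cells received either a control siRNA (siControl) or siRNA against OARD1, the gene of the MAR hydrolase TARG1 (siTARG1). The siRNA was at 30 nM and cells were collected after 48 h. The methods list 2 siRNAs against TARG1, and the labels do not say which was used. In the second pair, cells carried a Dox-inducible shRNA against endogenous RACK1 and a Dox-inducible, HA-tagged RACK1, either wild type (RACK1-WT) or with its MARylation sites mutated (RACK1-Mut). Both of these lines received Dox at 1 µg/ml for 48 h, so the RACK1-WT group lacks most endogenous RACK1 RNA as well. They were drug-selected pools of lentivirus-infected cells, and no library of uninduced cells was analysed here.

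Chaperones of the HSP70 family bind exposed hydrophobic stretches of unfolded proteins in a cycle driven by ATP. J-domain proteins deliver the client and start ATP hydrolysis, nucleotide exchange factors release it, and the HSP90 dimer takes over clients such as kinases and steroid receptors for their last folding steps. HSF1 is the transcription factor that is held inactive by chaperones and that, on heat or proteotoxic stress, binds heat shock elements and switches on the genes of this system. In carcinoma cells the system is often highly expressed.

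The chaperone RNAs differed between siTARG1 and siControl cells in both directions. Levels are in CPM, the gene's count scaled to the size of its library. BAG3, the constitutive HSP70 gene HSPA8 and the inducible HSP90 gene HSP90AA1 were lower in siTARG1 than in siControl cells, the stress-inducible HSP70 genes HSPA1A and HSPA1B and the constitutive HSP90 gene HSP90AB1 were higher, and HSF1, HSPH1, DNAJB1 and HSPB1 did not pass the test. Thus 6 of 10 genes were called, 3 in each direction, by edgeR's quasi-likelihood test at a Benjamini-Hochberg adjusted p under 0.05. That test called 46.6% of all genes tested in this comparison, 23.5% higher and 23.1% lower, so a count of 6 among 10 is near the background and is not a result about chaperones as a group. HSPA1A and HSPA1B share most of their coding sequence, so their 2 calls are not independent. DESeq2 called 6 of the 10 (42.4% of all genes), coding-sequence reads alone 6 (44.8%) and 3′ UTR reads alone 4 (28.8%). The libraries of the 2 groups did not overlap for 6 of the 10 genes, against 70.0% of all genes. No chaperone gene was called between RACK1-Mut and RACK1-WT cells, where 0.00713% of all genes were. Whether the RNA change of a gene came from fewer cells expressing it or from less RNA in each cell cannot be told apart in bulk libraries. The methods state that sequencing experiments were done at least 2 times with independent biological samples. The labels do not say whether the 2 libraries of a group came from separate cultures. The p-values measure the spread between these libraries only.

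**Figure D1:**
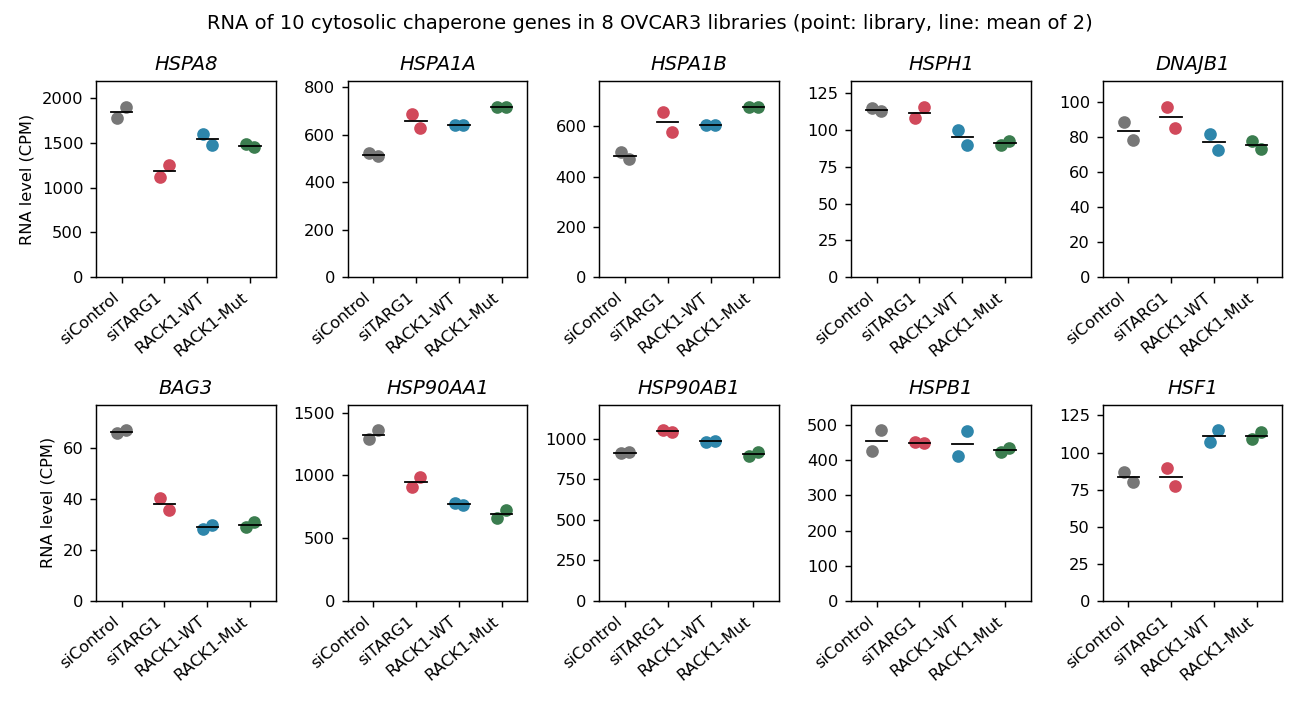
RNA level of each chaperone gene in CPM (the count scaled to its library by TMM, vertical axes starting at 0, each gene on its own scale) in the 8 libraries, grouped by condition. Each point is 1 library and each line the mean of a group's 2 libraries. HSPA8, HSP90AA1 and BAG3 stand highest in siControl, HSPA1A and HSPA1B stand lowest there, and HSF1 is higher in all 4 RACK1 libraries than in the 4 siRNA libraries.

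The targeted genes followed their labels. OARD1 RNA was 50.3 ± 2.46 CPM (SD, n = 2) in siControl and 3.54 ± 0.614 CPM in siTARG1 cells, giving a log2 fold change of -3.83 (SE 0.12, edgeR adjusted p = 1.2e-10). RACK1 RNA was 4569 ± 74.6 CPM in siControl, 1830.0 ± 95.7 CPM in RACK1-WT and 1426 ± 40.3 CPM in RACK1-Mut cells. Its 3′ UTR reads, the part that an HA-tagged coding sequence need not carry, stood at 5.43% and 5.44% of siControl. Both RACK1-Mut libraries had less RACK1 RNA than both RACK1-WT libraries (log2 fold change -0.36, SE 0.08, edgeR unadjusted p = 0.00033, adjusted p = 0.3). The part of this in the comparison of the 2 lines was not tested. Libraries held between 30989049 and 42668783 counts on exons, which were 38.4% to 56.2% of the alignments. All 9 epithelial and ovarian carcinoma markers were detected in the libraries, and their summed level was 2566 and 2666 CPM in siTARG1 against 3835 to 4024 CPM in siControl cells and 3873 to 3949 CPM in the RACK1 lines. The markers did not move together: KRT18 (1323 and 1259.6 CPM in siControl, 505 and 535 CPM in siTARG1), KRT8, MUC16 and WT1 were lower in both siTARG1 libraries, CDH1 (105 CPM in both siControl libraries, 296 and 297 CPM in siTARG1) and KRT7 were higher, and PAX8, EPCAM and MSLN overlapped. The summed markers of leukocytes, fibroblasts and endothelial cells reached at most 3.51, 9.11 and 11.5 CPM, and CD3E was at 0 in every library. The part of the marker change in the chaperone results was not tested.

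HSPA1A and HSPA1B, which encode the stress-inducible HSP70, lie beside each other on chromosome 6 (GRCh37, HSPA1A at chr6:31783320-31785723 and HSPA1B at chr6:31795515-31798031, both on the plus strand). Their coding sequences of 1926 bases differed at 4 positions in the reference, an identity of 99.79%, and the first 1709 bases were identical. Counted from 1 at the A of the start codon, with the base of HSPA1A first, the differences were G1710T, G1860C, C1905T and A1920G. The 30 coding bases around the first of them, positions 1695 to 1724, are shown because they are among the few coding stretches that tell the genes apart, and the capital marks the base that differs. The HSPA1A stretch is at chr6:31785228-31785257 and the HSPA1B stretch at chr6:31797422-31797451.
HSPA1A: ggacaagaagaaggtGctggacaagtgtca
HSPA1B: ggacaagaagaaggtTctggacaagtgtca

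The authors counted alignments of 25 to 51 bases and kept reads that match many places, so most coding reads of this pair could be counted for either gene. Of all 25-base windows of the HSPA1A coding sequence, 96.2% occurred unchanged in an HSPA1B transcript, and of all 51-base windows 93.7% did. In the 3′ UTR, HSPA1A shared 0.0% of its 25-base windows with another gene and HSPA1B 4.0%. In the coding sequence, the count of HSPA1A divided by that of HSPA1B was between 1.00 and 1.02 in every library. In the 5′ UTR the same ratio was between 1.71 and 1.98, and in the 3′ UTR between 1.32 and 1.94. Coding reads make up most of the exon count of either gene, so the exon levels of HSPA1A and HSPA1B are not 2 independent measurements. Per kb of 3′ UTR, where reads are specific, HSPA1A was higher than HSPA1B in all 8 libraries, by 1.90-fold to 2.78-fold. That ratio was 2.62 in siControl library 2 and 2.78 in siTARG1 library 2, against 1.90 to 2.07 in the other 6 libraries. The same 2 libraries had the lowest shares of alignments on exons, 38.4% and 39.1%, and the part of this in the ratio was not tested.

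**Figure D2:**
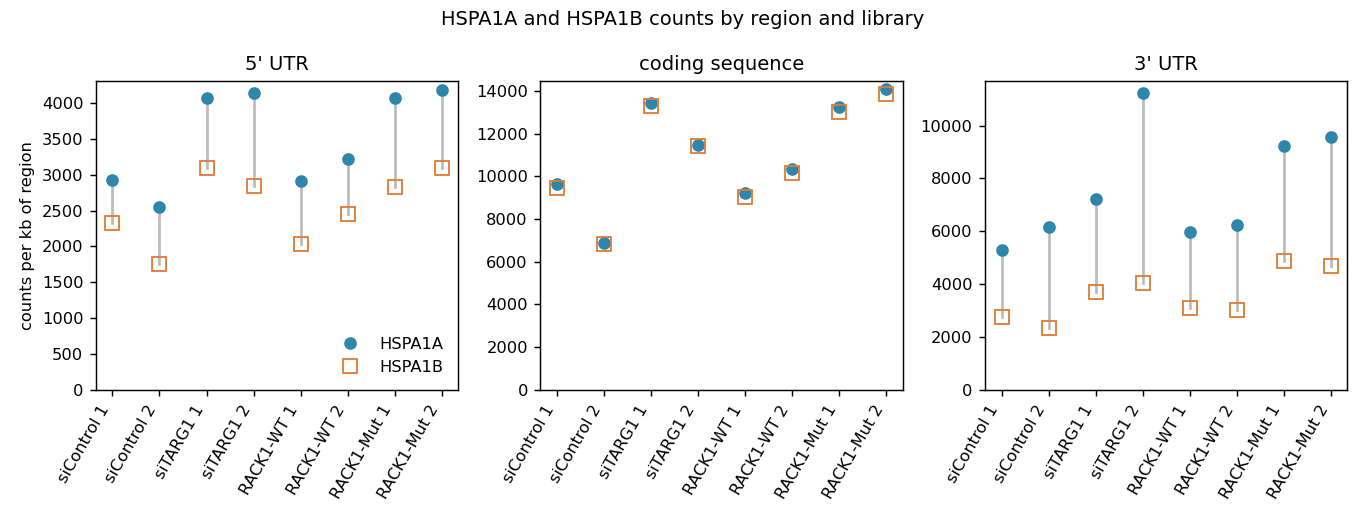
Counts per kb of HSPA1A (filled circles) and HSPA1B (open squares) in the 5′ UTR, coding sequence and 3′ UTR of each library, on linear axes that start at 0 and differ between panels. The coding counts of both genes coincide, with ratios of 1.00 to 1.02, while HSPA1A lies above HSPA1B in both UTRs of every library.

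Other chaperones share sequence mostly with their processed pseudogenes. Of the 25-base coding windows, 67.7% were shared in HSP90AA1 (most often with HSP90AA2P), 63.6% in HSPA8 (HSPA8P1), 60.6% in HSP90AB1 (HSP90AB3P), 34.8% in HSPB1 (HSPB1P1) and 26.4% in DNAJB1 (DNAJB1P1). At 51 bases those shares were 27.0%, 18.4%, 22.4%, 16.9% and 5.4%. HSPH1, BAG3 and HSF1 shared 0.0% at either length. The levels of HSPA8 and the HSP90 genes are uncertain to the extent that such reads were counted elsewhere or more than once. The log2 fold changes from 3′ UTR reads, which were nearly free of shared windows, are given for these genes.

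**Figure D3:**
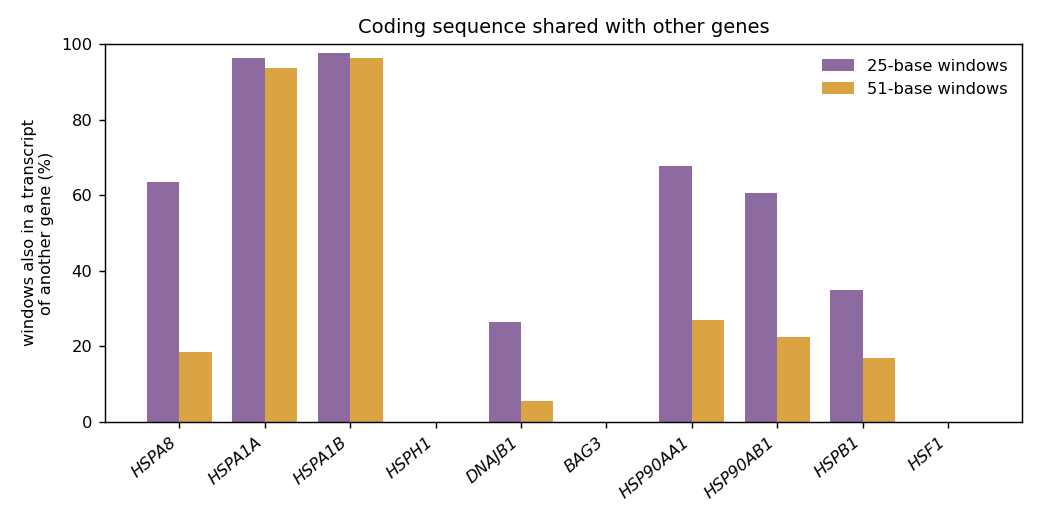
Share of the 25-base and 51-base windows of each gene's coding sequence that occur unchanged in a transcript of another gene (percent, axis from 0). HSPA1A and HSPA1B are above 90% at both lengths, the HSP90 genes and HSPA8 fall from above 60% to between 18% and 27%, and HSPH1, BAG3 and HSF1 are at 0.0%.

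HSPA8 encodes HSC70, the constitutive cytosolic HSP70 that carries much of everyday folding and clathrin uncoating (chr11:122928197-122933938, minus strand). Its RNA was at 1780.1 and 1903 CPM in siControl and at 1116 and 1251 CPM in siTARG1 cells. The RACK1-WT libraries had 1597 and 1477 CPM and the RACK1-Mut libraries 1482 and 1456 CPM, so both siTARG1 libraries were below all the others and both siControl libraries above. The log2 fold change in siTARG1 cells was -0.64 (SE 0.08, edgeR adjusted p = 1.4e-05), which leaves 64.3% of the siControl level. In 3′ UTR reads alone the log2 fold change was -0.64 again (edgeR adjusted p = 0.00074).

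HSPA1A RNA was at 521 and 509.7 CPM in siControl and at 686 and 628 CPM in siTARG1 cells. RACK1-WT libraries had 641 and 640.4 CPM, and both RACK1-Mut libraries 718 CPM. The siControl libraries were thus the lowest of the 8, and no siControl value overlapped another group. In siTARG1 cells the log2 fold change was 0.35 (SE 0.07, edgeR adjusted p = 0.00077). For HSPA1B the exon levels were 496 and 471 CPM in siControl, 655 and 578 CPM in siTARG1, 605 CPM in both RACK1-WT and 678 and 677 CPM in the RACK1-Mut libraries, with a log2 fold change in siTARG1 cells of 0.35 (SE 0.07, edgeR adjusted p = 0.0013). The 3′ UTR reads, which are almost free of shared sequence, gave 0.39 for HSPA1A (edgeR adjusted p = 0.19) and 0.34 for HSPA1B (edgeR adjusted p = 0.033). The HSPA1A call is therefore lost in 3′ UTR reads alone. Its 3′ UTR level was 35.0 and 53.2 CPM in siControl and 45.0 and 71.0 CPM in siTARG1 cells, which overlap. The HSPA1B 3′ UTR level was 26.0 and 29.2 CPM against 33.3 and 36.6 CPM, which do not. Within each replicate number the HSPA1A 3′ UTR level was higher in siTARG1, but no 3′ UTR fit used that number as a block. In the 5′ UTR, HSPA1A shared 5.3% of its 25-base windows with HSPA1B. Its 5′ UTR level was 21.5 and 24.4 CPM in siControl and 28.2 and 29.0 CPM in siTARG1 cells, a change that was not tested.

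In exon counts, HSPA1A thus moved against the constitutive HSPA8, though its own rise was not called on 3′ UTR reads. A ratio of these genes does not tell which of them moved. Per kb of exon, HSPA1A stood at 0.304 and 0.278 of HSPA8 in the siControl libraries and at 0.639 and 0.522 in the siTARG1 libraries. The RACK1-WT libraries had ratios of 0.417 and 0.451 and the RACK1-Mut libraries 0.504 and 0.513, between the siControl and siTARG1 values. Per kb of 3′ UTR the ratios were 0.155 and 0.213 in siControl against 0.325 and 0.425 in siTARG1 cells, so the order of these groups was the same on specific reads.

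HSPH1 encodes HSP105, an HSP110 protein that exchanges nucleotide on HSP70 and helps to break up aggregates (chr13:31709110-31736525, minus strand). It had 115 and 113 CPM in siControl and 108 and 116 CPM in siTARG1 cells, which overlap, with a log2 fold change of -0.03 (95% interval -0.18 to 0.13). Its level was lower in the RACK1 lines, at 100.3 and 89.8 CPM in RACK1-WT and 90.1 and 92.7 CPM in RACK1-Mut cells.

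DNAJB1 encodes HSP40, the heat-inducible J-domain partner of HSP70 (chr19:14625581-14671203, minus strand). Its levels were 88.8 and 78.4 CPM in siControl and 97.6 and 85.6 CPM in siTARG1 cells, with a log2 fold change of 0.13 (95% interval -0.06 to 0.32). RACK1-WT libraries had 82.0 and 72.9 CPM and RACK1-Mut libraries 78.1 and 73.6 CPM, and the siControl range overlapped those of siTARG1 and RACK1-WT.

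BAG3 encodes a nucleotide exchange factor that links HSP70 to small heat shock proteins and to selective autophagy of aggregates (chr10:121410892-121437331, plus strand). It had the largest change of the 10 genes in siTARG1 cells. BAG3 RNA was at 65.8 and 66.9 CPM in siControl and at 40.2 and 35.8 CPM in siTARG1 cells. RACK1-WT libraries had 28.2 and 29.6 CPM and RACK1-Mut libraries 29.0 and 30.9 CPM, so siControl stood above all 6 other libraries and the RACK1 lines stood below both siRNA groups. The log2 fold change in siTARG1 cells was -0.80 (SE 0.08, edgeR adjusted p = 1.9e-06), or 57.3% of the siControl level. The 3′ UTR reads gave -0.90 (edgeR adjusted p = 0.0011), and BAG3 shared 0.0% of its coding windows with another gene.

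HSP90AA1 and HSP90AB1 encode the stress-inducible and the constitutive cytosolic HSP90. HSP90AA1 (chr14:102547079-102606036, minus strand) was at 1291 and 1360.3 CPM in siControl and at 905 and 985 CPM in siTARG1 cells, giving a log2 fold change of -0.49 (SE 0.07, edgeR adjusted p = 0.0001). Its 3′ UTR reads stood at 201 and 203 CPM in siControl and at 144 and 143 CPM in siTARG1 cells, with the same log2 fold change of -0.49 (edgeR adjusted p = 0.001). Its exon level was lower still in the RACK1 lines, with 778 and 762 CPM in RACK1-WT and 663 and 728 CPM in RACK1-Mut cells, so siControl, siTARG1 and the RACK1 lines did not overlap. HSP90AB1 (chr6:44213903-44221625, plus strand) was at 910.5 and 920.1 CPM in siControl and at 1053 and 1045 CPM in siTARG1 cells, giving a log2 fold change of 0.20 (SE 0.06, edgeR adjusted p = 0.021). RACK1-WT libraries had 983 and 985 CPM and RACK1-Mut libraries 893 and 918 CPM of HSP90AB1. The HSP90AB1 call did not survive leaving out any of the 4 siRNA libraries (edgeR adjusted p = 0.092 and 0.075 without siControl library 1 or 2, and 0.059 and 0.055 without siTARG1 library 1 or 2), and it was lost in 3′ UTR reads (log2 fold change 0.24, edgeR adjusted p = 0.12).

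The ratio of the 2 cytosolic HSP90 RNAs differed between groups. A ratio does not tell which gene moved, and the HSP90AB1 rise was not called in 3′ UTR reads. Per kb of exon, HSP90AA1 stood at 1.25 and 1.30 of HSP90AB1 in siControl and at 0.758 and 0.831 in siTARG1 cells. In RACK1-WT cells the ratio was 0.699 and 0.682, and in RACK1-Mut cells 0.654 and 0.699. HSP90AA1 was thus the more abundant of the pair in siControl libraries only. On 3′ UTR reads, HSP90AB1 was the more abundant in every library, with ratios of 0.690 and 0.813 in siControl, 0.424 and 0.479 in siTARG1 and 0.374 to 0.393 in the RACK1 lines, so the order of groups held and the order of the genes in siControl did not.

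HSPB1 encodes HSP27, a small heat shock protein that holds unfolded clients without ATP (chr7:75931990-75933612, plus strand). Its RNA level lay between 411 and 485 CPM over the 8 libraries. The siControl and siTARG1 libraries overlapped, and the log2 fold change in siTARG1 cells was -0.02 (95% interval -0.20 to 0.16).

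HSF1, the regulator itself (chr8:145515273-145538383, plus strand), had 87.0 and 80.2 CPM in siControl and 89.3 and 77.4 CPM in siTARG1 cells, with a log2 fold change of -0.01 (95% interval -0.18 to 0.17). In the RACK1 lines it had 107 and 115 CPM (RACK1-WT) and 109 and 114 CPM (RACK1-Mut), above all 4 siRNA libraries. RNA does not report HSF1 activity, which is set by trimer formation and phosphorylation.

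**Figure D4:**
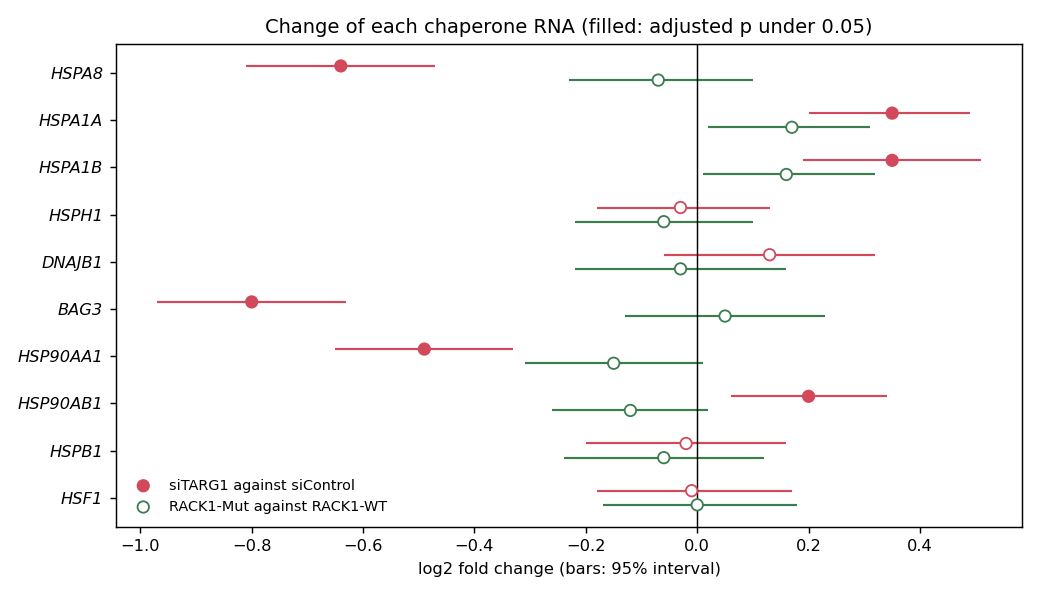
Log2 fold change of each chaperone RNA, with its 95% interval, in siTARG1 against siControl (red) and RACK1-Mut against RACK1-WT (green) cells. Filled points passed an adjusted p of 0.05 in edgeR: 6 red points, from -0.80 for BAG3 to 0.35 for HSPA1A and HSPA1B, and no green point.

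In the comparison of RACK1-Mut with RACK1-WT cells the 10 log2 fold changes lay between -0.15 for HSP90AA1 and 0.17 for HSPA1A. HSPA1A was higher by a log2 fold change of 0.17 (95% interval 0.02 to 0.31, unadjusted p = 0.029, edgeR adjusted p = 0.99), and HSPA1B by 0.16 (95% interval 0.01 to 0.32, unadjusted p = 0.042, edgeR adjusted p = 1), a pair that shares its reads. At an unadjusted p under 0.05 these 2 of 10 passed, against 4.90% of all genes tested. DESeq2 called 17 genes and a fit of these 4 libraries alone called 49, none of them one of the 10. The libraries of RACK1-WT and RACK1-Mut did not overlap for HSPA1A, HSPA1B, HSP90AA1 and HSP90AB1, 4 of 10 against 37.8% of all genes tested. The 95% intervals of the other 8 genes stayed between -0.31 and 0.23, so larger changes than these lie outside the intervals, but a p that misses the threshold does not show that the lines are alike.

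The siTARG1 effect was then set against the RACK1-Mut effect as a difference of log2 fold changes. It passed the test for BAG3 (-0.86, SE 0.11, edgeR adjusted p = 6.7e-05), HSPA8 (-0.57, SE 0.11, edgeR adjusted p = 0.0012), HSP90AB1 (0.32, SE 0.09, edgeR adjusted p = 0.016) and HSP90AA1 (-0.34, SE 0.10, edgeR adjusted p = 0.023). That was 4 of 10 genes, where 32.4% of all genes tested were called. For HSPA1A the difference was 0.18 (95% interval -0.02 to 0.39), so its effects in the 2 comparisons were not shown to differ. The HSP90AA1 difference was lost without siControl library 2 (edgeR adjusted p = 0.089), siTARG1 library 1 (0.064), RACK1-WT library 1 (0.065) or 2 (0.087) or RACK1-Mut library 2 (0.082). The HSP90AB1 difference was lost without siControl library 1 (0.051) or RACK1-WT library 1 (0.059) or 2 (0.063), and in 3′ UTR reads (0.11).

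Between the siRNA-treated and the Dox-treated lines, the cell line, the treatment and the experiment differ together and cannot be told apart, so no test was made. As a description, the 4 RACK1 libraries were all outside the range of the 4 siRNA libraries for HSPH1, HSP90AA1 and BAG3, which were lower (26.6% of all genes were), and for HSF1, which was higher (26.8%), 4 of 10 genes where 53.4% of all genes were outside. The 2 siControl libraries were outside the range of the other 6 for 5 of the 10 genes, against 37.1% of all genes. HSPA8, HSP90AA1 and BAG3 were above (18.3% of all genes) and HSPA1A and HSPA1B below (18.8%). The last pair shares most of its coding reads, so these are not 2 independent cases.

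The order of the genes depended on the region counted. By CPM per kb of exon, HSPA8 came first in siControl (689.7 to 737) and HSPH1 last (21.7 to 22.2), while in siTARG1 cells HSPB1 (493 to 498) stood above HSPA8 (432 to 485) and BAG3 (13.9 to 15.6) was last. HSPA8 was first in RACK1-WT (572 to 619) and RACK1-Mut (564 to 574) cells, with BAG3 last in both (11.0 to 12.0). Neighbours whose exon levels overlapped were HSF1 and DNAJB1 in siControl and siTARG1 cells, and HSP90AA1, HSPA1A and HSPA1B in siTARG1 cells. Per kb of 3′ UTR, the region with few shared windows, HSPB1 stood above HSPA8 in every group, at 1019 ± 69.4 against 901 ± 62.2 CPM per kb in siControl and 1027 ± 57.9 against 579 ± 76.7 CPM per kb in siTARG1 cells (SD, n = 2), and HSPH1 was last in every group. Per kb of coding sequence, HSPA8 had the highest mean and BAG3 the lowest in every group, with BAG3 at 29.4 ± 1.36 and HSPH1 at 36.7 ± 0.448 CPM per kb in siControl. The change of first and last place between siControl and siTARG1 cells was thus seen in exon counts only, whereas HSPA8 and BAG3 themselves were lower in siTARG1 cells in exon, coding-sequence and 3′ UTR counts alike.

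The promoters of 9 of the 10 genes were found in RefSeq (GRCh38.p14, 250 bases before to 50 after the start, 14 promoters in all), and were searched on both strands for 3 adjoining units of the heat shock element. This is the letters GAA, any 2 bases, TTC, any 2 bases and GAA, or the reverse complement of that run. Of 35116 RefSeq promoters, 172 (0.49%) held this strict form. Among the chaperone genes, HSPA8, HSP90AA1 and HSP90AB1 held it, each in 1 of its promoters. The matches are shown because they belong to 3 genes that were called in siTARG1 cells, and the capitals mark the 13 bases of each element, read 5′ to 3′ along the gene's strand. Positions are counted from the transcription start of the promoter that holds the match. For HSP90AB1 this promoter was chr6:44247693-44247992, downstream of those at chr6:44245944-44246243 and chr6:44246851-44247150. For HSP90AA1 it was chr14:102086995-102087294, downstream of that at chr14:102139700-102139999. The matches of the HSP90 genes thus lie downstream of their other listed starts.
HSPA8, chr11:123062345-123062374, minus strand, from -230: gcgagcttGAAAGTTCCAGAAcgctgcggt
HSPA8, chr11:123062170-123062199, minus strand, from -55: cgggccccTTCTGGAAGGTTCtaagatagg
HSP90AA1, chr14:102087111-102087140, minus strand, from -88: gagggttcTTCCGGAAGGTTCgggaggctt
HSP90AB1, chr6:44247770-44247799, plus strand, from -165: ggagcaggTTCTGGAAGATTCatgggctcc
HSP90AB1, chr6:44247823-44247852, plus strand, from -112: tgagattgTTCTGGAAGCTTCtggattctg
Of these carriers HSPA8 and HSP90AA1 were lower and HSP90AB1 higher in siTARG1 than in siControl cells. A match describes the letters only, and promoters without one lack only these letters in this window.

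The RNAs of co-chaperones, of regulators and of other chaperones moved in both directions in siTARG1 cells as well. Over 127 tested genes of 10 further chaperone lists, 26 were called higher and 35 lower, with a median log2 fold change of -0.03, beside 46.6% called and a median of 0.01 over all genes tested. None of them was called between RACK1-Mut and RACK1-WT cells.

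Among the other HSP70 and HSP110 genes, 3 of 8 tested rose and 1 fell (median 0.36). Of all genes tested, 46.6% were called, 23.5% higher and 23.1% lower. The microsomal HSP70 gene HSPA13 rose from 188 ± 14.3 to 327 ± 46.4 CPM (n = 2 each, log2 fold change 0.80, edgeR adjusted p = 7.5e-06), HSPA14 rose by 0.50 and HSPA4L by 0.41 on the log2 scale, and HSPA4, an HSP110 gene, fell by 0.31. Of 18 J-domain genes, 2 rose and 4 fell (median -0.05), 33.3% called. DNAJB4 rose by 0.63 and DNAJC6, the auxilin gene, by 0.43, while DNAJC2 fell by 0.53. Of 12 HSP70 co-chaperones and exchange factors, 3 rose and 4 fell (median -0.15), 58.3% called. The BAG family did not move together, since BAG4 rose by 0.82 and BAG1 from 64.1 ± 0.662 to 102 ± 1.33 CPM (log2 fold change 0.67, edgeR adjusted p = 3.7e-06) while BAG3 fell. STUB1, which encodes the ubiquitin ligase CHIP that marks HSP70 clients for degradation, fell by 0.52, and SGTA fell by 0.29.

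Of 20 HSP90 co-chaperones, 5 rose and 3 fell (median 0.04), where 23.5% of all genes tested were called higher and 23.1% lower. FKBP4, the immunophilin FKBP52 of steroid receptor complexes, fell from 155 ± 5.37 to 56.7 ± 1.80 CPM (log2 fold change -1.45, SE 0.07, edgeR adjusted p = 2e-09). FNIP2, which with FLCN binds HSP90 and slows its ATPase, rose from 13.7 ± 0.0467 to 41.7 ± 1.42 CPM (log2 fold change 1.60, SE 0.09, edgeR adjusted p = 7.3e-09). CHORDC1 rose by 0.47 and PTGES3, the p23 gene, fell by 0.19. Both FKBP4 and FNIP2 moved further than any of the 10 chaperone genes.

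CRYAB, the only other small heat shock protein gene tested, rose from 0.628 ± 0.0368 to 2.06 ± 0.235 CPM (log2 fold change 1.71, edgeR adjusted p = 3.6e-05) and stood at 11.7 ± 1.25 CPM in RACK1-WT cells, so it is at a low level in all 4 groups next to HSPB1. The list of 16 genes around the CCT chaperonin, which folds actin and tubulin, holds subunits of CCT and of its partner prefoldin and the phosducin-like cofactors PDCL and PDCL3. Of these 16, 10 fell, PDCL among them, and 1 rose (median -0.21), against 23.1% and 23.5% of all genes. CCT2 fell by 0.35, CCT8 by 0.17 and PFDN1 by 0.44, and PFDN4 rose by 0.42. Of 11 heat shock factors and regulators of HSF1, 6 fell and 0 rose (median -0.32), against the same 23.1% and 23.5% of all genes. SIRT1, a deacetylase of HSF1, fell by 0.75, HSBP1, which binds the HSF1 trimer, by 0.45, FBXW7 by 0.32 and VCP by 0.28.

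Of 28 other heat-inducible HSF1 targets, 6 rose and 9 fell (median -0.14), 53.6% called against 46.6% of all genes. FKBP4, DNAJB4 and CRYAB were as above, and ZFAND2A fell by 0.46. Outside the cytosol, 2 of 13 mitochondrial chaperone genes rose and 2 fell (median 0.02), 30.8% called. GRPEL1 fell by 0.83 and CLPX by 0.22, while GRPEL2 rose by 0.38 and TRAP1 by 0.34. Of 18 chaperone genes of the endoplasmic reticulum, 7 rose and 2 fell (median 0.08), against 23.5% and 23.1% of all genes tested. DNAJC1 rose by 1.11 and DNAJC3 by 0.65, while DNAJC10 fell by 0.55 and HYOU1 by 0.24.

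**Figure D5:**
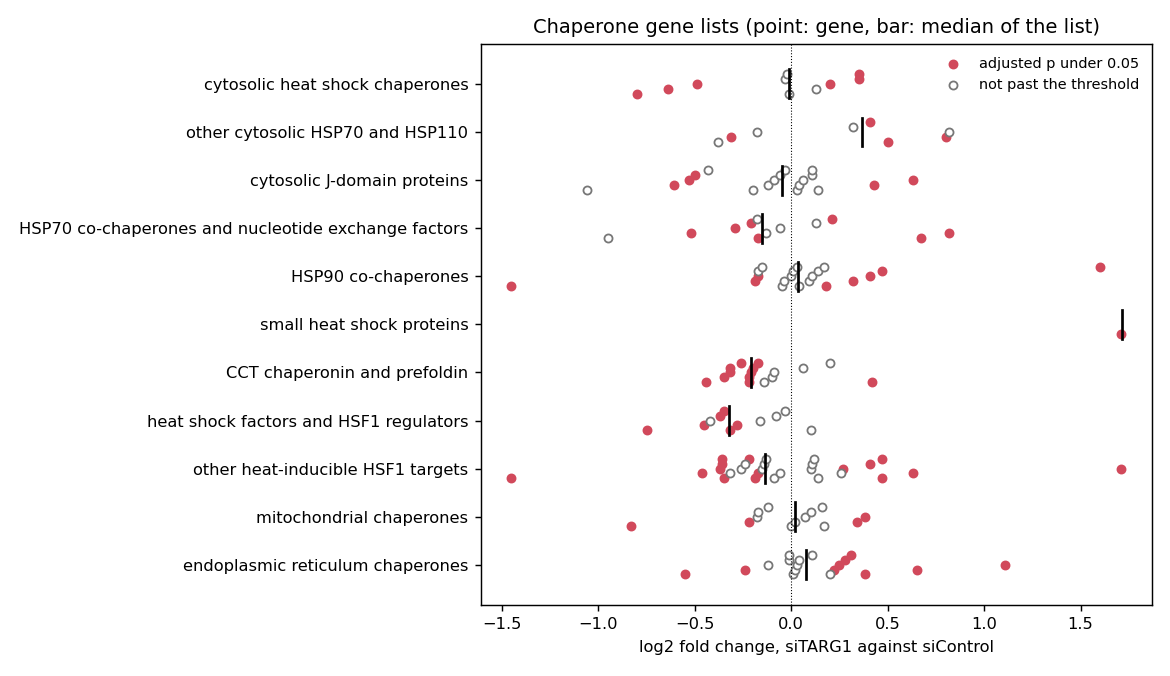
Log2 fold change, siTARG1 against siControl, of each tested gene in 11 chaperone lists (points; red where the edgeR adjusted p was under 0.05) with the median of each list (black bar). The cytosolic heat shock chaperones spread from -0.80 to 0.35 about a median of -0.01, and the lists of HSF1 regulators and of CCT, prefoldin and their cofactors have the lowest medians, -0.32 and -0.21.

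Over the 8 libraries, the gene outside the list whose log2 CPM was most like that of each chaperone was found among 9967 genes. These likenesses describe 4 groups of 2 libraries rather than 8 independent points, and they carry no test. The closest was DHRSX for BAG3 (Pearson r = 0.995), CSNK1E for HSP90AA1 in a row it shares with TPTEP2-CSNK1E (0.995), CUL2 for HSPH1 (0.994), CENPB for HSF1 (0.994) and GALC for HSPA8 (0.993). It was PALM for HSPA1B (0.990), SLC6A8 for HSPA1A (0.985), DDX31 for DNAJB1 (0.967) and ERAP1 for HSP90AB1 (0.954). HSPB1 had the weakest, H4C3 (0.837).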

How the data were processed

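RNA-seq was analysed for 8 libraries of OVCAR3 cells. Per the labels and the methods of the study, the authors removed rRNA and contaminant reads with Bowtie 1.1.2, aligned the rest to GRCh37 with TopHat2 2.1.1 (Gencode 24, up to 64 hits kept) and counted those 25 to 51 bases long with Plastid, gene by gene. The deposited values are estimated counts, not whole and not normalized, and RPKM, by all exons, coding sequence and UTRs. Replicates were not pooled.

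Symbols and coordinates came from Gencode 44 on GRCh37, which matched 94.7% of 36595 transcript names. Exon counts were rounded, filtered with filterByExpr and tested over all 8 libraries with edgeR 4.0.16 (TMM, quasi-likelihood, limma 3.58.1, R 4.3.3). Adjusted p-values are Benjamini-Hochberg over 14024 genes. CPM are TMM-scaled. The authors' RPKM were used only as an alternative for the order of levels. Simulated data had 50 of 14024 genes changed at each fold, a far smaller share than the 46.6% called in siTARG1 cells. On these, the siTARG1 comparison recovered 32% of 1.25-fold and 70% of 1.5-fold changes, with 5.9% false calls. The RACK1-Mut comparison recovered 20% and 74%, with 5.6% false calls. The adjusted p depends on the share of genes changed, so these rates need not hold for either real comparison. The real RACK1-Mut comparison called 1 of 14024 genes, fewer than were changed in the simulation, so its recovery may be lower.

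The members and lists were chosen with earlier results of these data known. In the other lists, named genes are all that passed where 5 or fewer did, otherwise the 2 highest and 2 lowest log2 fold changes among those past the threshold in siTARG1 against siControl. One gene that this rule names is not reported here. Alternatives were DESeq2 1.42.0, RLE scaling, other filters, regions, summed rows, fewer libraries and a replicate block. The replicate numbers were not taken as pairs.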

Additional observations from a re-analysis of the deposited data

Results flagged for a closer look

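The siTARG1 effect and the RACK1-Mut effect differed by the test of the difference itself for 4 of the 10 chaperone genes, near the 32.4% of all genes tested for which it did. BAG3 differed by -0.86 on the log2 scale, having fallen in siTARG1 cells (-0.80) and stood at 0.05 in RACK1-Mut against RACK1-WT cells. HSPA8 differed by -0.57 (-0.64 against -0.07) and HSP90AA1 by -0.34 (-0.49 against -0.15). HSP90AB1 differed by 0.32, being 0.20 in siTARG1 and -0.12 in RACK1-Mut cells. Leaving out 1 library lost the HSP90AA1 difference in 5 of 8 fits (edgeR adjusted p = 0.064 to 0.089) and the HSP90AB1 difference in 3 of 8 (0.051 to 0.063), and the latter was also lost in 3′ UTR reads (edgeR adjusted p = 0.11). The compared perturbations act on different genes in different lines, which cannot be told apart from the treatment. No group had the 4 or more libraries needed to look for an outlying library.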

How the results depend on the processing

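No chaperone gene changed direction while called under any of the 10 other settings or 8 fits that left out 1 library. In siTARG1 against siControl cells 96 gene and setting pairs kept their side of the threshold and 3 lost the call (HSPA1A and HSP90AB1 in 3′ UTR reads, and HSP90AB1 in a fit of the 4 siRNA libraries alone, edgeR adjusted p = 0.053). The number called over all genes was 6537, and 3612 in 3′ UTR reads. Left-out libraries gave 5254 to 6328. In RACK1-Mut against RACK1-WT cells the count was 1, and 17 with DESeq2, 15 without a filter, 0 with at least 10 counts in every library, 2 in coding-sequence reads, 0 in 3′ UTR reads and 49 in the 4 libraries alone. Left-out libraries gave 0 to 9. For the difference of effects, 4550 genes became 2050 in 3′ UTR reads, and the number of chaperones called, 4, ranged from 2 to 4 with 1 library left out, with 2 without either RACK1-WT library. The cause was not tested. With the replicate number as a block the counts were 6559, 3 and 4588, and no call of a chaperone changed. The pairing was not used, since deviations of same-numbered libraries correlated by 0.26 and 0.03 over only 2 pairs. RPKM and RLE scale all genes of a library alike and so say little of the order of the levels, which changed with the region counted. Depth limits the low values most, such as the 183 to 525 counts of BAG3 in its 3′ UTR.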
